A study of Mus musculus with 2 samples.

Results

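The lysosomal hydrolases described here are 33 genes that encode acid enzymes for glycans, lipids, peptides, phosphate esters and DNA, their lipid-presenting activators, and 2 genes that make the enzymes competent or route them. They were chosen by gene name, as all probe sets that the platform annotation assigns to exactly 1 gene on the list. This gave 72 of the 45101 probe sets on the array, and all 33 genes had at least 1. The study measured RNA of mouse peritoneal macrophages on Affymetrix 3' arrays, 1 for each group. The elicited array held RNA of thioglycollate-elicited macrophages (labelled TGPMs), collected 3 days after 1 mL of 3% thioglycollate was injected into the peritoneal cavity. The resident array held RNA of resident peritoneal macrophages (RPMs) from non-treated mice. All mice were C57BL/6J and 8 weeks old, no genetic alteration is named for either group, and cells were enriched by adherence to plastic. The protocol gives 2 h of adherence and the series text overnight culture, and how many mice each array stands for was not stated in the labels.

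Lysosomes break down what macrophages engulf, and most of their glycan enzymes remove a single kind of sugar or sulfate from the end of a chain, so that chains are taken apart in a fixed order. The enzymes are made in the endoplasmic reticulum, tagged with mannose 6-phosphate in the Golgi and released from their receptors in acid endosomes. Inherited loss of many of these enzymes causes a lysosomal storage disease, in which macrophages are often among the swollen cells.

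With 1 array per group there were no replicates, so no difference was tested and no value has a replicate error. Values are linear signal intensities, and ratios are log2 of elicited over resident signal. Signals at or below a floor of 82.2, set from silent receptor and keratin-associated genes, were raised to it, and a ratio against such a signal is a bound. For each gene the probe set of highest mean log2 signal stands for it. The SD between probe sets of 1 gene, 0.48 on the log2 scale over 4465 genes, is the only spread available, and it covers probes, not animals. Ratios compare the arrays for the same probe set. Across genes, signals served to rank genes by mean signal and to sum marker lists on each array, and the brightest genes weigh most in such sums. In whole populations such as these, fewer cells of a type and less RNA per cell cannot be told apart.

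Most hydrolase transcripts (69.7%, against 48.1% of all named genes above the floor) had more signal on the elicited array. That share was near the 67.7% of all genes in the top 2 deciles of mean signal, where 23 of the 33 lay. Under each of 5 scalings, 18 of the 33 were above 0. Acp5, Gla and Galns led at over 4-fold, while Hgsnat stood apart at 6.16-fold lower. All 33 genes passed the floor on 1 array or more, and 32 did on both. Of them, 7 (21.2%) were at least 2-fold higher on the elicited array, against a background of 8.04% of 11499 named genes. Another 2 (6.06%), Hgsnat and Dnase2a, were at least 2-fold lower, against 11.8% of all genes. The counts moved with the scaling, and so did the background. With equal medians 16 hydrolases were higher and 2 lower, against 14.2% and 7.35% of all genes. With quantile normalization 4 were higher and 1 lower, against 11.0% and 7.99%, so that the higher share was near the background there. With loess 4 of 33 were higher and 2 lower, against 9.31% and 9.24%, so the higher share was close to the background there too. With the hybridisation controls made equal, 4 were higher and 2 lower, against 5.04% and 18.4%. As deposited, the median log2 ratio was 0.66 for the hydrolases, with 23 genes above 0 and 10 below, and -0.03 for all named genes. At 1.5-fold the counts were 17 higher and 3 lower, against backgrounds of 18.4% and 23.1%. Ratios among the hydrolases ran from -2.62 to 2.38 with an SD of 0.97, close to the 0.95 of all genes.

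**Figure D1:**
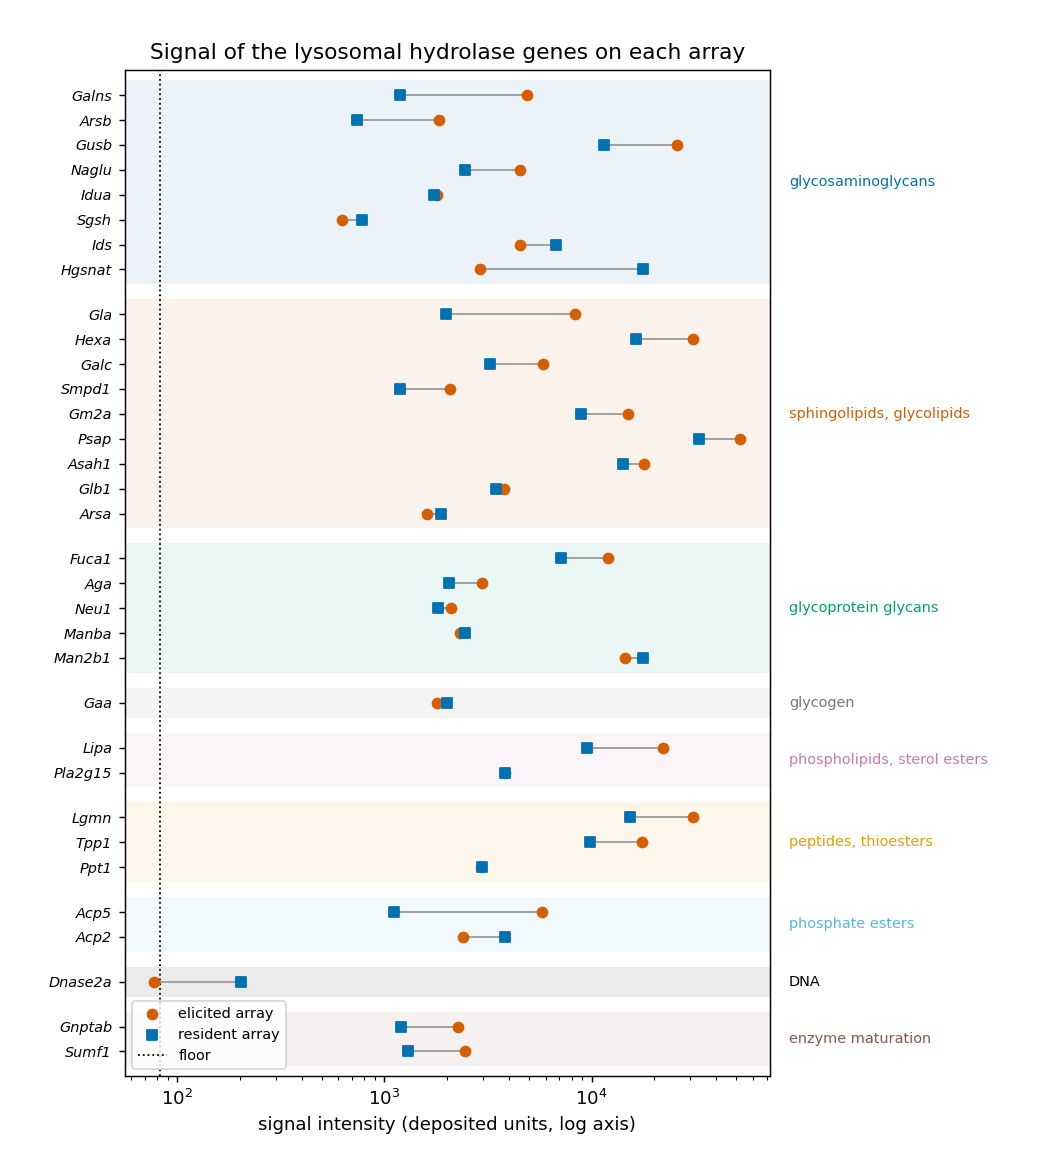
Signal of each hydrolase gene on the elicited array (orange circles) and the resident array (blue squares), on a log axis, grouped by main substrate, with the floor of 82.2 as a dotted line. Acp5, Gla and Galns have the widest gaps with the elicited circle to the right, Hgsnat has the widest gap with it to the left, and Dnase2a is the only gene whose elicited signal lies under the floor.

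The ratio of all genes depended on signal, and these genes have bright probe sets. Taken over all genes, the median log2 ratio was -0.23 in the fourth decile of mean signal and 0.40 in the highest. Of the 33 hydrolases, 23 lay in the top 2 deciles, 14 of them in the highest. Among all 2300 genes of the top 2 deciles, 11.0% were higher and 6.13% lower by 2-fold or more, with a median of 0.29. The 23 hydrolases there had 6 higher and 1 lower, with a median of 0.74. Above 0 were 73.9% of them, near the 67.7% of all 2300 genes. The other 10 hydrolases had a median of 0.12, 1 higher and 1 lower. Within their own decile, 20 of 33 lay above the median of all genes. After a loess trend on signal was removed, the hydrolase median was 0.37, against 0.07 for all genes.

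**Figure D2:**
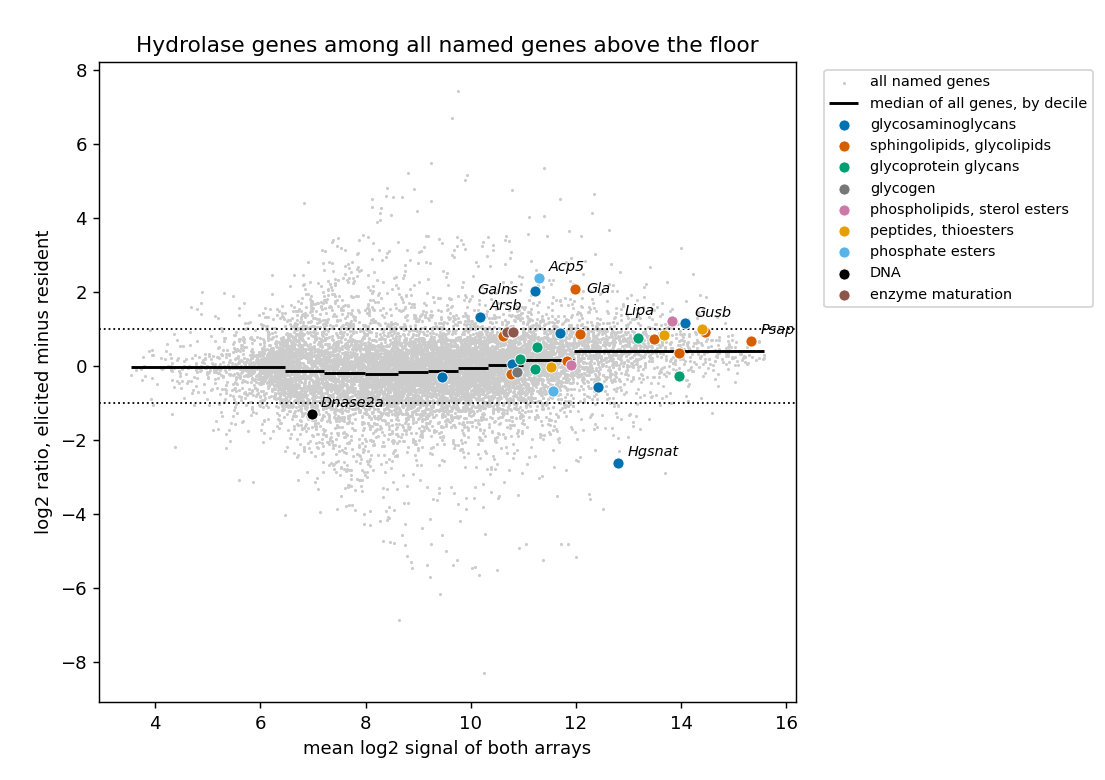
Log2 ratio (elicited minus resident) against the mean log2 signal of both arrays for all 11499 named genes above the floor (grey), with the hydrolases coloured by substrate class, the median of all genes in each decile as black lines, and 2-fold as dotted lines. The black line climbs to 0.40 in the highest decile, where 14 hydrolases lie, while Acp5, Gla and Galns stand above 2 and Hgsnat lies at -2.62.

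Direction held over 5 scalings for 23 genes, of which 18 were above 0 and 5 (Acp2, Dnase2a, Hgsnat, Ids and Sgsh) below 0 under each. The other 10 (Arsa, Asah1, Gaa, Glb1, Idua, Man2b1, Manba, Neu1, Pla2g15 and Ppt1) changed sign, and none of these was more than 0.34 from 0 as deposited. Among the genes that held, Sgsh was barely below 0 with equal medians (-0.005), and its second probe set was at 0.03 as deposited. All genes together had a median of -0.03 as deposited, and the hydrolase median lay 0.70 above it. Equal medians moved the median of all genes to 0.25, and the hydrolases lay 0.73 above. Quantile normalization gave 0.16 for all genes and a gap of 0.21, and loess 0.07 and a gap of 0.30. When the spiked hybridisation controls were made equal, all genes had -0.30 and the gap was 0.66. Equal medians and control scaling each shift all ratios by a constant, so apart from the floor they cannot change the gap. Quantile and loess scaling could, and both made it smaller. Acp5, Gla and Galns were at least 2-fold higher, and Hgsnat at least 2-fold lower, under all 13 settings tried. Gusb, Lgmn and Lipa fell short of 2-fold under quantile, loess and control scaling.

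**Figure D3:**
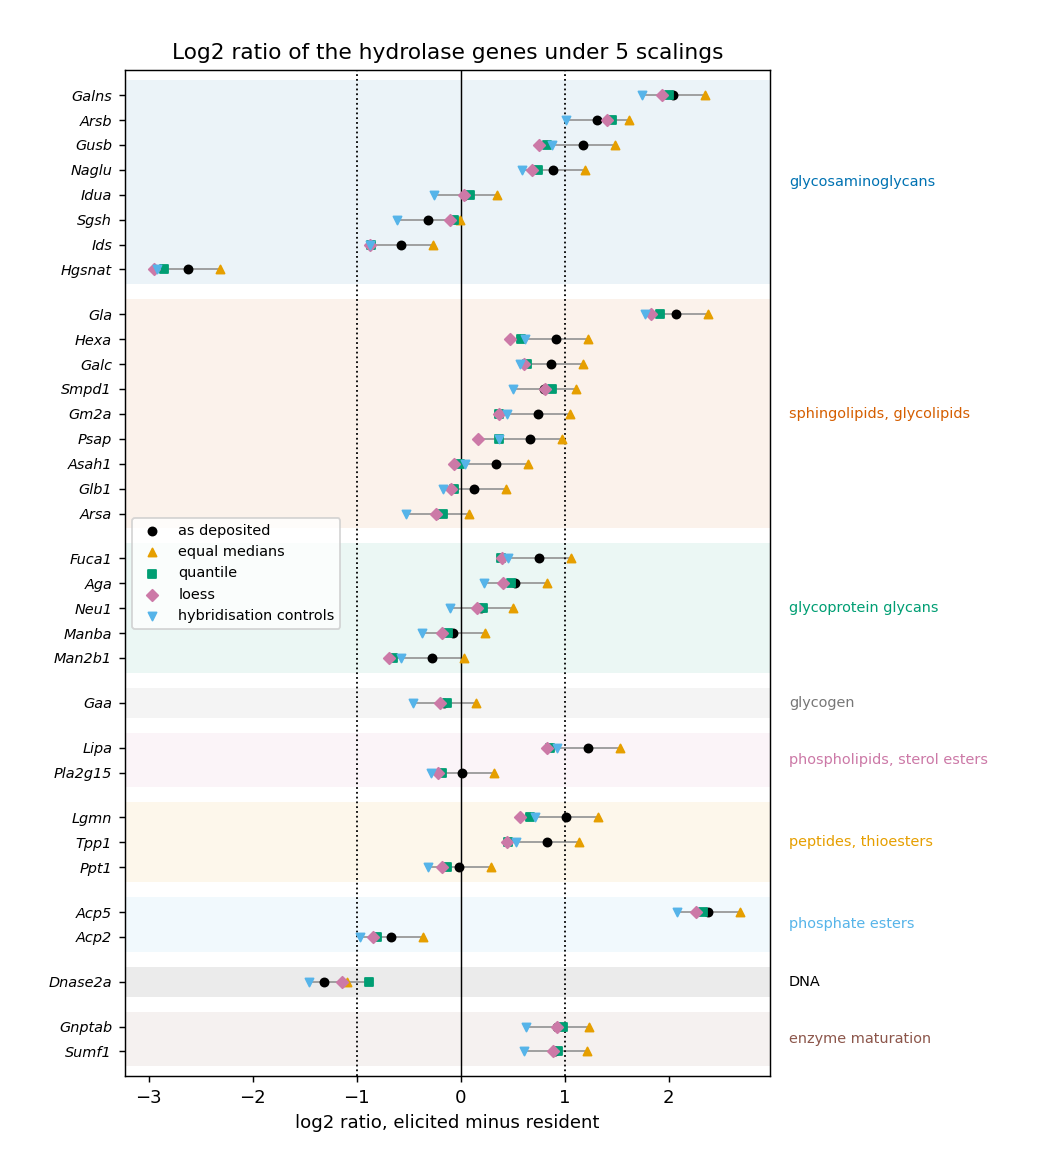
Log2 ratio (elicited minus resident) of each hydrolase gene as deposited and under 4 other scalings, with grey lines spanning the range, solid line at 0 and dotted lines at 2-fold. Acp5, Gla and Galns stay to the right of the 2-fold line and Hgsnat to the left under every scaling drawn, while 10 genes lie on both sides of 0. The value of Dnase2a is a bound.

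Promoter sequences are shown because many lysosomal genes carry a CLEAR element, an E-box that the factor TFEB and its relatives bind. RefSeq promoters (GRCm38.p6, 250 bases before to 50 after the start) were matched for 29 of the 33 genes, all but Aga, Asah1, Galns and Hgsnat. The element TCACGTG, searched on both strands (so also as CACGTGA), was present for 8 of 29 genes (27.6%): Arsa, Gaa, Gla, Glb1, Lgmn, Naglu, Sgsh and Sumf1. It was present for 4.29% of all 27025 genes in the table and for 7.09% of the 9360 that were above the floor on these arrays. The shorter E-box CACGTG, which lies inside it, was found in the same 8 genes. It was found in 8.09% of all genes and 11.8% of those above the floor. The longer palindrome TCACGTGA, which holds both, was found in Gla and Sumf1 alone among the hydrolases (6.90%). It was found in 1.12% of all genes and 2.26% of those above the floor. Gla had it in 2 places, starting 228 and 195 bases before the start of transcription. The stretches below run from Sumf1 (chr6:108185584-108185635, minus strand), Gla (chrX:134601153-134601255, minus strand), Arsa (chr15:89477425-89477481, minus strand) and Sgsh (chr11:119355511-119355579, minus strand) to Glb1 (chr9:114400989-114401075, plus strand) and Lgmn (chr12:102439096-102439182, minus strand). They are the 2 genes with the longest element and the 4 others with the element nearest to the start, and capitals mark the element.
Sumf1: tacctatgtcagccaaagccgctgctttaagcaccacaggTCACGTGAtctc
Gla: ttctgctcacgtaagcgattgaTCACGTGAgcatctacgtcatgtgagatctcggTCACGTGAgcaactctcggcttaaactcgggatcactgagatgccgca
Arsa: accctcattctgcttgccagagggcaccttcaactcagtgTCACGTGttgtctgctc
Sgsh: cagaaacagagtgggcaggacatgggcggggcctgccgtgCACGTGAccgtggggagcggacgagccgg
Glb1: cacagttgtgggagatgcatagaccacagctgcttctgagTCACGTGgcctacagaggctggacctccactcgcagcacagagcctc
Lgmn: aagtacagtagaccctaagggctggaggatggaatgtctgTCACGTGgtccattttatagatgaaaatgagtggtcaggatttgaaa

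The 8 genes with TCACGTG covered a wide range of ratios. Their median log2 ratio was 0.50, against 0.74 for the 21 hydrolases whose promoter window lacked these letters. They ran from -0.31 (Sgsh), -0.22 (Arsa), -0.16 (Gaa) and 0.12 (Glb1) up to 0.88 (Naglu), 0.91 (Sumf1), 1.01 (Lgmn) and 2.07 (Gla). Over all genes the medians were 0.05 with the element and -0.03 without it.

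Glycosaminoglycans are the long sulfated sugar chains of proteoglycans, and the 8 genes that act on them spread more widely than any other class with over 2 genes. Their median log2 ratio was 0.46 with an SD of 1.46. By 2-fold or more, 3 (37.5%) were higher and 1 (12.5%) lower, against 8.04% and 11.8% of all genes. Among all genes of the top 2 deciles of mean signal, the shares were 11.0% and 6.13%. Galns, a sulfatase for keratan and chondroitin sulfate, had a signal of 4873 on the elicited and 1186 on the resident array, 4.11-fold higher. Arsb, the sulfatase of dermatan sulfate, had 1830 on the elicited and 737 on the resident array, 2.49-fold higher. Gusb, beta-glucuronidase, had 25898 on the elicited and 11490 on the resident array, 2.25-fold higher. The elicited array was thus the higher for these 3 genes. Second probe sets of Arsb and Gusb had log2 ratios of 0.57 (a bound) and 0.86, and that of Galns was below the floor on both arrays. Gusb fell short of 2-fold with quantile (0.83), loess (0.75) and control scaling (0.87). Arsb fell short as the mean of its probe sets (0.94).

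The enzymes of heparan sulfate, a chain taken apart in a fixed order, did not share a direction. Of the 6 genes with a role in it, grouped after their values were seen, 3 had ratios above 0 and 3 below as deposited. Idua (0.04) and Sgsh (-0.31) lay within the SD between probe sets of 0.48, so the even split rests on small ratios. Hgsnat, the membrane enzyme that acetylates the terminal glucosamine of the chain, had 2881 on the elicited and 17745 on the resident array, a log2 ratio of -2.62. It was read by a single probe set, so no second one checks it. Naglu, which removes the acetylated sugar that Hgsnat makes, had 4526 on the elicited and 2453 on the resident array, a log2 ratio of 0.88. The genes of consecutive steps thus lay on opposite sides of 0, and both kept their sign under every setting tried. Ids, iduronate sulfatase, had 4510 on the elicited and 6737 on the resident array (-0.58), and its 4 probe sets above the floor ran from -0.77 to -0.34. Sgsh, which removes the sulfate from glucosamine, had 627 on the elicited and 778 on the resident array (-0.31), with a second probe set at 0.03. Idua, alpha-iduronidase, had 1795 on the elicited and 1740 on the resident array (0.04), with a second probe set at -0.08. Its ratio was -0.25 with control scaling.

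Of the 9 genes of sphingolipid and glycolipid breakdown, 8 (88.9%) were above 0 as deposited, against 48.1% of all genes. The share was 67.7% among all genes of the top 2 deciles of mean signal. Asah1 and Glb1 turned below 0 under some scalings. The class median was 0.74 on the log2 scale with an SD of 0.64. By 2-fold or more, 1 gene (11.1%) was higher and none lower, against 11.0% and 6.13% in those deciles. At least 1.5-fold higher were 6 (66.7%), against 31.1% in those deciles and 18.4% of all genes. Gla, alpha-galactosidase A, which is lacking in Fabry disease, had 8313 on the elicited and 1977 on the resident array, 4.20-fold higher. Its second probe set above the floor had 621 on the elicited and 164 on the resident array, a log2 ratio of 1.92. Both of these Gla probe sets thus had a much higher signal on the elicited array. Any link between that ratio and the paired promoter elements shown above was not tested.

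Hexa, the alpha subunit of beta-hexosaminidase, had 30888 on the elicited and 16351 on the resident array (log2 ratio 0.92). Gm2a, which lifts the ganglioside GM2 from the membrane for that enzyme, had 14928 on the elicited and 8930 on the resident array (0.74). Psap, the precursor of the saposins that present lipids to several of these enzymes, had 52208 on the elicited and 32944 on the resident array (0.66, and 0.16 with loess). Enzyme subunit and activators thus had ratios in the same direction, all under 2-fold as deposited. Galc, the galactosylceramidase lacking in Krabbe disease, had 5859 on the elicited and 3217 on the resident array (0.86). Smpd1, acid sphingomyelinase, had 2067 on the elicited and 1190 on the resident array (0.80). Asah1, acid ceramidase, which cleaves the ceramide that those enzymes leave, had 17890 on the elicited and 14136 on the resident array (0.34). Glb1, acid beta-galactosidase, had 3783 on the elicited and 3470 on the resident array (0.12). The exception was Arsa, the sulfatase of sulfatide, with 1604 on the elicited and 1873 on the resident array (-0.22).

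With the probe set of highest mean signal for each gene, genes for the sugar chains of glycoproteins lay closest together among the classes with over 2 genes. Their median log2 ratio was 0.20 with an SD of 0.42, and none of 5 was past 2-fold in either direction. Fuca1, alpha-fucosidase, had 12004 on the elicited and 7142 on the resident array (0.75), and its 3 probe sets above the floor ran from 0.58 to 0.75. Aga, which cuts the bond between sugar and asparagine, had 2954 on the elicited and 2061 on the resident array (0.52). Neu1, the lysosomal sialidase, had 2086 on the elicited and 1821 on the resident array (0.20). Manba, beta-mannosidase, had 2316 on the elicited and 2446 on the resident array (-0.08). Man2b1, alpha-mannosidase, had 14534 on the elicited and 17652 on the resident array (-0.28). Its second probe set had 304 on the elicited and 1256 on the resident array, a log2 ratio of -2.05. The size of the Man2b1 difference thus rests on the choice of probe set. So do the closeness of this class and its lack of genes past 2-fold. Gaa, the alpha-glucosidase of glycogen, had 1792 on the elicited and 2002 on the resident array (-0.16), with a second probe set at 0.15.

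Between the classes, the medians of the sphingolipid and the glycosaminoglycan genes differed by 0.28 as deposited, by 0.01 with loess and by -0.04 with quantile normalization, where their order turned. The sphingolipid median exceeded that of the glycoprotein genes by 0.54 as deposited, by 0.21 with loess and by 0.16 with quantile normalization. No class lay wholly apart: the ranges were -2.62 to 2.04 for glycosaminoglycans, -0.22 to 2.07 for sphingolipids and -0.28 to 0.75 for glycoproteins.

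**Figure D4:**
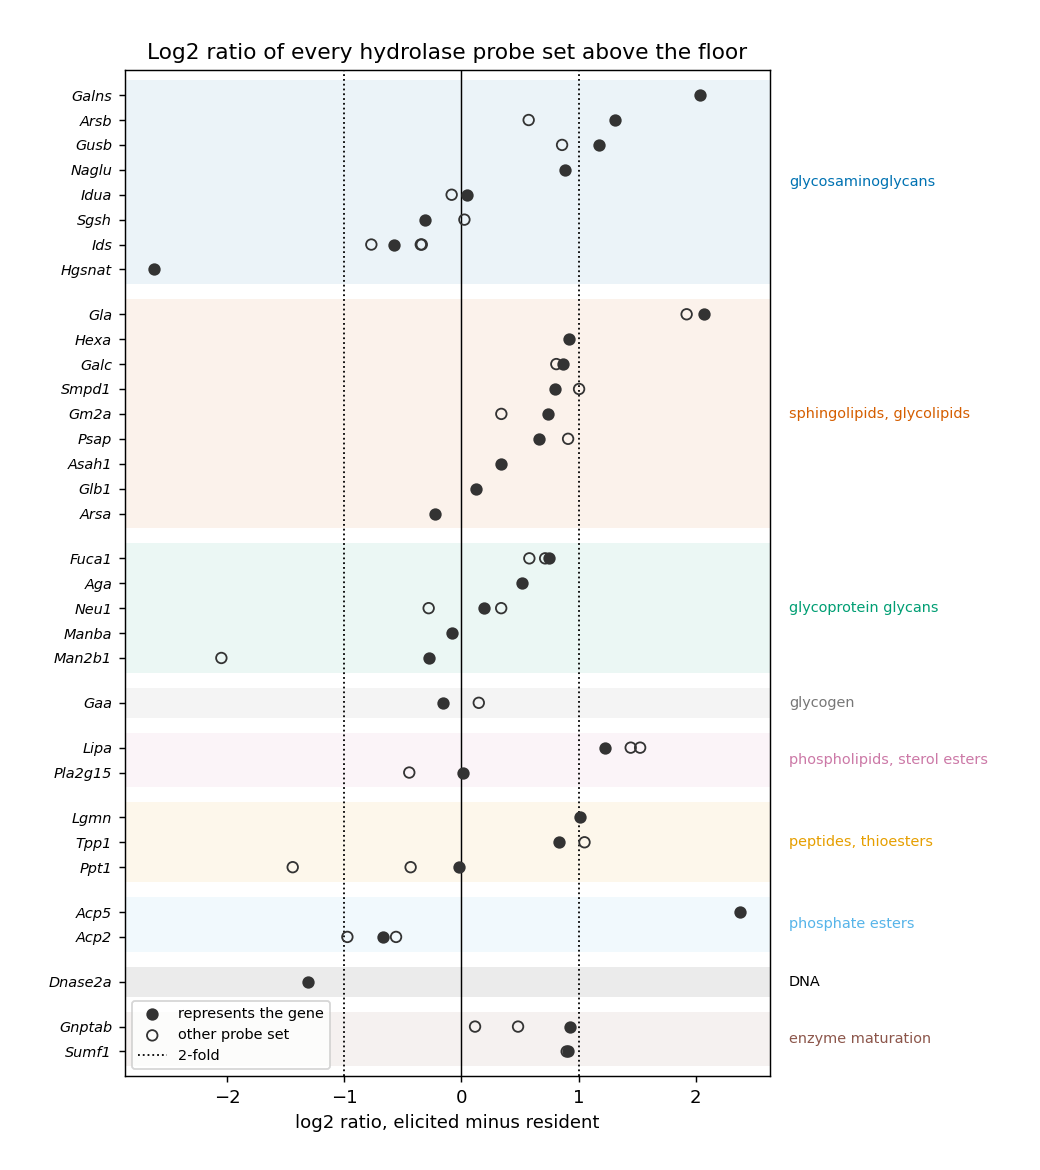
Log2 ratio (elicited minus resident) of all 62 hydrolase probe sets above the floor on at least 1 array, by gene and substrate class; filled points represent the gene, open points are its other probe sets, and dotted lines mark 2-fold. Of the 62 points, 41 lie above 0 and 21 below. The probe sets of Gla and Lipa lie close together and those of Man2b1 and Ppt1 far apart, and Dnase2a, the second point of Arsb and the highest of Neu1 are bounds.

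Lipa, the acid lipase that frees cholesterol and fatty acids from engulfed lipoproteins, had 22204 on the elicited and 9483 on the resident array, 2.34-fold higher. Its other probe sets had log2 ratios of 1.44 and 1.53, so all 3 were past 2-fold as deposited. Pla2g15, the lysosomal phospholipase, had 3835 on the elicited and 3802 on the resident array (0.01), with a second probe set at -0.45. Thus of the neutral-lipid and the phospholipid enzyme, Lipa alone was past 2-fold, and it was not with quantile (0.86), loess (0.83) or control scaling (0.93).

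Of the genes for proteins and peptides, Lgmn, the asparaginyl endopeptidase legumain that also cuts cathepsin precursors, had 30729 on the elicited and 15266 on the resident array, 2.01-fold higher and just past the threshold. Lgmn, too, was read by 1 probe set only. Tpp1, a tripeptidyl peptidase, had 17529 on the elicited and 9855 on the resident array (0.83), with a second probe set at 1.05. Ppt1, which removes fatty acids from cysteines of proteins, had 2929 on the elicited and 2966 on the resident array (-0.02). Its other probe sets above the floor were lower on the elicited array, at -0.43 and -1.44, the last with only 87.0 on the elicited and 236 on the resident array.

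The phosphatases pointed in opposite directions. Acp5, the tartrate-resistant acid phosphatase, had 5772 on the elicited and 1109 on the resident array, 5.20-fold higher and the highest ratio of the 33 genes as deposited. Acp5 was read by 1 probe set only, so no second one checks it. Acp2, the lysosomal acid phosphatase, had 2399 on the elicited and 3823 on the resident array (-0.67), and its 3 probe sets ran from -0.97 to -0.56. Acp5 is also known from osteoclasts, and of 7 genes used as osteoclast markers the elicited array had more signal for Ctsk (17127 against 419) and Atp6v0d2 (22596 against 1776). Nfatc1 (729 on the elicited and 1895 on the resident array) and Dcstamp (224 on the elicited and 497 on the resident array) were lower, and Calcr, Oscar and Ocstamp were below the floor on both. The part of osteoclast-like cells in the Acp5 value was not tested.

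Dnase2a, the acid nuclease for DNA of engulfed cells, had 77.4 on the elicited array, which is under the floor, and 204 on the resident array. It was at least 2.48-fold lower. That value rests on a single dim probe set, which can cross-hybridise, and with a floor of 174 the bound was -0.23 on the log2 scale. Another probe set that names Dnase2a together with a second gene was left out.

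The maturation genes had nearly equal ratios. Sumf1, which converts the active-site cysteine of sulfatases, had 2446 on the elicited and 1304 on the resident array (0.91), with its second probe set at 0.90. Gnptab, the catalytic part of the enzyme that starts the mannose 6-phosphate tag, had 2276 on the elicited and 1200 on the resident array (0.92), with other probe sets at 0.12 and 0.48. The 5 sulfatases of the list that Sumf1 serves (grouped after their values were seen) did not share its direction: Galns (2.04) and Arsb (1.31) were above 0, and Arsa (-0.22), Sgsh (-0.31) and Ids (-0.58) below.

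Other lysosomal hydrolases, a list of 23 genes outside the 33, were measured for 17, and the other 6 were not analysed here. Of the 17, 3 (17.6%) were higher and 2 (11.8%) lower by 2-fold or more, against 8.04% and 11.8% of all genes, with a median log2 ratio of 0.29 (-0.01 when the hybridisation controls were made equal). Pld3, a lysosomal exonuclease, had 14252 on the elicited and 3524 on the resident array (2.02). Pld4, its relative with a like activity, had 746 on the elicited and 2822 on the resident array (-1.92). Of the nucleic acid enzymes, Pld3 was thus higher on the elicited array and Pld4 and Dnase2a lower. Fuca2, a secreted fucosidase, had 5844 on the elicited and 1687 on the resident array (1.79), with a second probe set at -0.12. Dpp7, a dipeptidyl peptidase, had 9127 on the elicited and 4516 on the resident array (1.02), with its 3 probe sets from -0.25 to 1.02. Arsg, a heparan sulfate sulfatase, had 323 on the elicited and 997 on the resident array (-1.63). Ctsa, the protective protein that forms a complex with Neu1 and Glb1, had 28174 on the elicited and 14810 on the resident array (0.93), and the carboxypeptidase gene Scpep1 10282 on the elicited and 6649 on the resident array (0.63).

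Tagging and sorting of the enzymes was covered by 6 further genes, of which 1 (16.7%) was higher, against 8.04% of all genes, and none lower by 2-fold or more (median 0.42, and from 0.12 to 0.73 over the scalings). Gnptg, the gamma subunit that works with Gnptab, had 433 on the elicited and 151 on the resident array (1.52). Of the receptors for the tag, Igf2r had 4168 on the elicited and 2141 on the resident array (0.96) and M6pr 13649 on the elicited and 10184 on the resident array (0.42). Scarb2, which carries beta-glucocerebrosidase without the tag, had 5898 on the elicited and 5648 on the resident array (0.06).

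Both arrays carried macrophage transcripts, with all 8 macrophage markers above the floor on each and summed signals of 137236 on the elicited and 141135 on the resident array. The near-equal sums cover unequal members: 3 had log2 ratios above 0 and 5 below, with a median of -0.51, from -1.58 (Itgam) and -1.45 (Cd14) to 0.81 (Cd68) and 1.35 (Fcgr1). Summed signals of 6 B cell markers were 4718 on the elicited and 20162 on the resident array. Of these, Cd79a (under the floor on the elicited array), Cd79b, Ms4a1 and Ighm were at least 11.4-fold lower, while Cd22, with 4078 on the elicited and 2269 on the resident array, and Pax5 (log2 ratio 0.18) were not lower. None of 6 dendritic cell or 6 mast cell markers was above the floor on the elicited array, against 3 and 5 on the resident array (sums 277 against 1368 and 141 against 2484). Of 8 mesothelial and fibroblast markers, the elicited array had 7 above the floor and the resident array 2 (sums 11253 against 438), with Msln below it on both. Summed signals of 7 neutrophil markers were 8339 on the elicited and 12010 on the resident array. Csf3r (log2 ratio -1.25) and Mmp8 (-1.16) were lower on the elicited array, S100a8 was not (0.35), and Elane, Ltf, Mpo and S100a9 were below the floor on both. Summed signals of 4 T cell markers were 389 on the elicited and 614 on the resident array. Cd28 had 321 on the elicited and 112 on the resident array, Cd3d and Cd3g were under the floor on the elicited array alone, and Cd3e was under it on both. The part of these cells in the hydrolase values was not tested. Spiked controls had 1.23-fold more signal on the elicited array, in 9 of 9 probe sets, and the 3' to 5' signal ratio of beta-actin was 1.22 on the elicited and 1.19 on the resident array.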

How the data were processed

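The authors deposited a linear signal intensity for each probe set and array, and the submitters' processing notes name MAS5 as the tool. Its version, target and detection calls were not stated. Both arrays had a mean of 500.0 after trimming 2% of probe sets at each end, so the values are scaled to a common trimmed mean. Depth has no counterpart on arrays, and their number limits the precision.

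Gene names came from the platform annotation and were brought up to date through gene IDs of RefSeq on GRCm38.p6 (34754 of 34958 with 1 gene). The floor was the 95th percentile of 126 probe sets of olfactory, vomeronasal and taste receptors and keratin-associated proteins. Ratios were computed as elicited minus resident on the log2 scale after flooring, against a threshold of 2-fold. No test was run, since each group has 1 array.

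The 33 genes, the substrate classes, the related lists and the cell type markers were chosen with earlier results of these data known. All 33 genes are named. Of the related lists, genes at least 2-fold apart and the 3 of highest signal are named. Of the 8 promoters with the element, 6 are printed. A search of sulfatase proteins for their signature was not made. The calculations were tested on simulated data. Alternatives changed the scaling, floor, probe set, filter, threshold and class of Glb1 and Hexa. Tools were Python 3.11.15, numpy 2.4.6, pandas 2.3.3, statsmodels 0.14.6 and matplotlib 3.10.9.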

Additional observations from a re-analysis of the deposited data

How the results depend on the processing

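The number of hydrolases at least 2-fold higher, 7 as deposited, was 16 with equal medians, 4 each with quantile, loess and control scaling, and 17 at a threshold of 1.5-fold. The number at least 2-fold lower, 2 as deposited, was 1 with quantile normalization, with the floor at the 99th percentile, with the floor added as a pseudocount, and with genes above the floor on both arrays only. In each of these Dnase2a was the gene no longer counted. It was 3 with the mean of all probe sets and with the probe set chosen by its identifier, which added Man2b1, and 3 at 1.5-fold. The mean of all probe sets gave 6 higher, without Arsb. The log2 ratio of Dnase2a, the only DNA gene, was -0.23 with the floor at the 99th percentile. That floor is a signal of 174, which the resident signal of Dnase2a barely exceeds. The hydrolase median ran from 0.37 to 0.97 over the settings. Class medians moved with the scaling, from 0.37 to 1.05 for sphingolipids, from 0.17 to 0.77 for glycosaminoglycans and from -0.10 to 0.50 for glycoproteins, and the last changed sign with control scaling. Gaa, the only glycogen gene, ran from -0.46 to 0.15. The log2 ratio of Man2b1 was -1.16 as the mean of its probe sets and -2.05 when the probe set was chosen by its identifier, and that of Ppt1 was -0.63 as a mean. Of all genes, 924 were at least 2-fold higher and 1357 lower as deposited, 1640 and 848 with equal medians, 1274 and 926 with quantile normalization, and 583 and 2126 with control scaling. No paired analysis was possible because each group has 1 array. Leaving out a replicate was not possible for the same reason.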
